A study of Xenopus laevis with 3 samples.

Results

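The interferon response genes described here are mx1.L, irf1.L, irf2.L, irf8.L, dhx58.L, eif2ak2.L, nmi.L and psmb9.S. They are 8 of the 11303 genes to which the platform annotation gives a single symbol, and 10 probe sets carry their symbols. The genes were selected on their differences between the same 3 arrays that are described below, so their counts and medians are descriptions and were not tested. The arrays held liver RNA of female Xenopus laevis, the African clawed frog. Pregnenolone, a steroid and the precursor of the steroid hormones, was injected intraperitoneally at 50 mg/kg into 3 frogs on 2 consecutive days, and artemisinin, an antimalarial drug, at 200 mg/kg into 3 frogs in the same way. Controls received the solvent DMSO on both days, and their number, like the strain and age of all frogs, is not given in the sources used here. Livers were taken 24 h after the last injection, and the RNA of a group was pooled into 1 array, which leaves the values without a replicate error and the differences untested. The study sought genes that are controlled by xlCAR, the CAR of this frog, a nuclear receptor of drug metabolism.

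Interferons are secreted proteins that vertebrate cells make when they sense foreign nucleic acid, and they act through surface receptors, JAK kinases and STAT factors on a large set of target genes. The interferon regulatory factors (IRFs) are transcription factors that bind the control elements of interferon genes and of their targets. In mammals IRF1 mostly activates such targets, IRF2 can oppose it at the same elements, and IRF8 is made mainly by myeloid and B cells. Among the products, Mx proteins are GTPases that hinder viruses, PKR (the product of eif2ak2) is a kinase that halts translation on double-stranded RNA, DHX58 (LGP2) is a helicase that adjusts RNA sensing, NMI binds STAT and Myc proteins, and PSMB9 (LMP2) replaces a standard catalytic subunit in the immunoproteasome, which cuts peptides for MHC class I. The suffixes .L and .S mark the gene copies on the long and short chromosome of a pair in this allotetraploid frog.

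Values are log2 expression values, on which a difference of 1 is 2-fold. A level filter was set at the mean of the median probe set (5.61), and 7478 genes passed it, each taken at its brightest probe set by mean. All 8 interferon response genes passed. Counts use a difference of at least 1.5-fold (0.58 on the log2 scale). As a measure of how far probe sets of the same gene disagree, the SD between their differences was 0.28 for pregnenolone minus DMSO, 0.22 for artemisinin minus DMSO and 0.27 for artemisinin minus pregnenolone, over 1287 genes with several probe sets. This SD leaves out the variation between frogs and any error that all probe sets of an array share.

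The tissue label was set against hepatocyte markers, and the fibrinogen genes fgg.L and fgb.L stood at 14.45 and 14.22 with pregnenolone, 14.47 and 14.32 with artemisinin and 14.45 and 14.28 with DMSO. Hepatocyte genes were not all as level as these 2. Of 20 above the filter, 3 lay at least 1.5-fold under DMSO and 1 over it with pregnenolone, against 5.03% and 6.22% of all genes. With artemisinin 0 were lower and 2 higher, against 2.98% and 3.0%. Between the treated arrays 2 were lower and 4 higher with artemisinin than with pregnenolone, against 6.53% and 4.97%. The widest apart were ttr.L, for transthyretin (-1.86 with pregnenolone and 0.88 with artemisinin), and apoa1.L, for an apolipoprotein (2.51 with pregnenolone and -0.12 with artemisinin). The DMSO array stood apart from both others by genes of the exocrine pancreas: the summed linear level of 7 such genes above the filter was 390 with pregnenolone, 359 with artemisinin and 8961 with DMSO. Of 26 such genes measured, only these 7 passed the filter, which uses the mean of the 3 arrays. Their mean log2 level was 5.69 with pregnenolone, 5.57 with artemisinin and 9.87 with DMSO. The high DMSO values thus helped them pass, and part of the contrast comes from the filter. Both comparisons with DMSO share that array. The difference between artemisinin and pregnenolone does not use it and is given for some of the results, although the compounds were given at different doses.

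With pregnenolone all 8 genes were below DMSO, and 6 of them by at least 1.5-fold, against 5.03% of all 7478 genes. None was at least 1.5-fold higher, against 6.22% of all genes. With artemisinin 5 of the 8 were at least 1.5-fold higher, against 3.0% of all genes, and 2, irf2.L and irf8.L, were at least 1.5-fold lower, against 2.98%. The median difference of the 8 genes was -0.73 with pregnenolone and 0.71 with artemisinin, and the median over all genes was 0 in both comparisons. Without the DMSO array, 6 of the 8 were at least 1.5-fold higher with artemisinin than with pregnenolone, against 4.97% of all genes, and 0 were lower, against 6.53%. In RNA of whole liver, fewer cells of a type and less RNA per cell cannot be told apart. The selection used these contrasts, so nothing is read from the gap to the background.

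**Figure D1:**
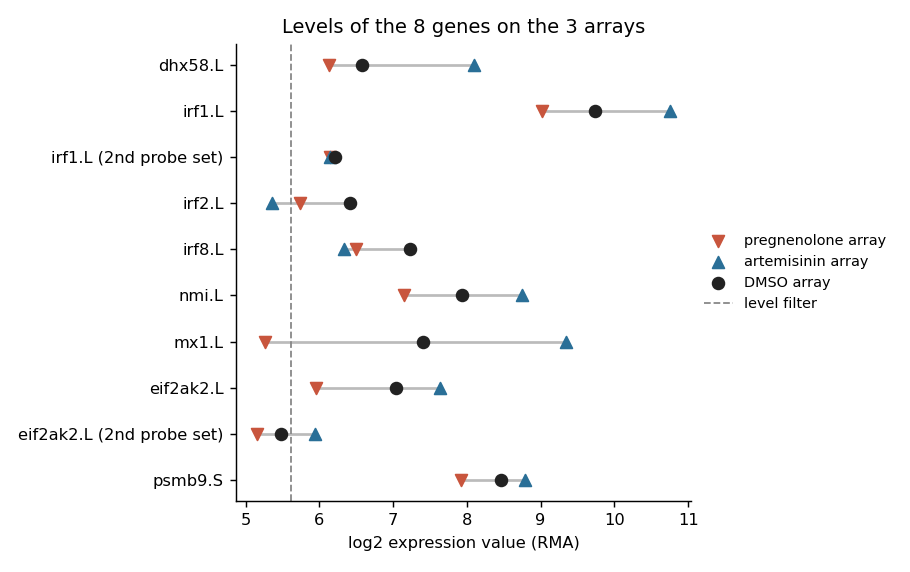
Log2 expression values (horizontal axis) of the 10 probe sets of the 8 genes on the pregnenolone (downward triangle), artemisinin (upward triangle) and DMSO (circle) arrays, with 1 array per group and the level filter as a dashed line. In 6 genes the pregnenolone value lies to the left of DMSO and the artemisinin value to the right, from psmb9.S, at 7.92 with pregnenolone, 8.79 with artemisinin and 8.47 with DMSO, to mx1.L, at 5.26, 9.35 and 7.40 on the same arrays, while in irf2.L and irf8.L both treated values lie to the left.

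Among the effectors, mx1.L (Entrez gene 100861583) differed most. Its level was 5.26 on the pregnenolone array, 9.35 on the artemisinin array and 7.40 on the DMSO array. It was thus low with pregnenolone, where its value lay under the level filter, intermediate with DMSO and high with artemisinin. The differences from DMSO were -2.14 with pregnenolone (4.42-fold lower) and 1.94 with artemisinin (3.85-fold higher). Of 7478 genes, 17 had a lower difference with pregnenolone and 21 a higher one with artemisinin. Between the treated arrays mx1.L differed by 4.09, or 17.0-fold, and a single gene, the heat shock gene hsp70.L (4.55), had a larger positive difference. Because the pregnenolone value lay under the level filter, the size of that difference can depend on the background correction. No background level was measured. The pregnenolone value of mx1.L was above that of 44.0% of all probe sets on its array, and the artemisinin value above that of 92.9%.

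The kinase gene eif2ak2.L (100037060) had levels of 5.95 with pregnenolone, 7.64 with artemisinin and 7.04 with DMSO. It was 2.13-fold lower with pregnenolone (-1.09) and 1.52-fold higher with artemisinin (0.60), the value with artemisinin being only just past the threshold. The other probe set of the gene, whose mean lay below the level filter, had levels of 5.15, 5.94 and 5.48 on the pregnenolone, artemisinin and DMSO arrays. Its order of the arrays was alike with smaller differences, -0.33 with pregnenolone and 0.46 with artemisinin. In the RefSeq gene table (assembly Xenopus_laevis_v10.1) the next gene after eif2ak2.L is pkr2.L, which is named as a related kinase gene and has no probe set of that symbol here, so cross-hybridisation between them was not tested.

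The gene nmi.L (495484) stood at 7.14 with pregnenolone, 8.75 with artemisinin and 7.93 with DMSO. The treated arrays lay on opposite sides of DMSO at nearly equal distance, 1.73-fold lower with pregnenolone (-0.79) and 1.76-fold higher with artemisinin (0.82). Its values were above the level filter on all 3 arrays.

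The RNA sensing gene dhx58.L (444342) had levels of 6.13 with pregnenolone, 8.10 with artemisinin and 6.58 with DMSO. It stood out on the artemisinin array, at 2.87-fold over DMSO (1.52), and 38 of 7478 genes had a higher difference there. With pregnenolone it was 1.36-fold lower (-0.45), which did not reach the threshold. Between the treated arrays the difference was 1.97.

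The immunoproteasome gene psmb9.S (378667) had levels of 7.92 with pregnenolone, 8.79 with artemisinin and 8.47 with DMSO. It had the same order of the arrays as the genes above, but neither difference from DMSO, -0.55 with pregnenolone and 0.33 with artemisinin, reached 1.5-fold. The treated arrays differed by 0.87, or 1.83-fold. In the gene table its neighbours include brd2.S, mhc2a.S and notch4.S, which lie in the MHC region of other vertebrates.

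The activator gene irf1.L (398826) had levels of 9.02 with pregnenolone, 10.75 with artemisinin and 9.74 with DMSO by its brighter probe set. The pregnenolone value was the lowest and the artemisinin value the highest, 1.65-fold below (-0.72) and 2.02-fold above DMSO (1.01). That probe set is marked in its name as matching several transcripts. The other probe set of irf1.L, at 6.14 with pregnenolone, 6.14 with artemisinin and 6.21 with DMSO, did not separate the arrays, with differences of -0.07 for both compounds. The gene's call thus rests on 1 of 2 probe sets. The short-chromosome copy irf1.S (444014), measured by a probe set of its own, had levels of 7.32 with pregnenolone, 8.70 with artemisinin and 7.82 with DMSO. It kept the order of the brighter irf1.L probe set, with differences of -0.50 with pregnenolone and 0.88 with artemisinin.

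The factor genes irf2.L and irf8.L were lower with both compounds, a pattern that 82 of 7478 genes (1.10%) showed at 1.5-fold. The gene irf2.L (495990) stood at 5.74 with pregnenolone, 5.36 with artemisinin and 6.42 with DMSO. Its differences from DMSO were -0.68 with pregnenolone (1.60-fold lower) and -1.06 with artemisinin (2.09-fold lower). The artemisinin value lay under the level filter, and 45 genes had a lower difference with artemisinin. The high DMSO value helped irf2.L pass the filter, which uses the mean of all arrays, as for the pancreas genes. Its place among the 82 genes thus comes in part from the filter. The copy irf2.S (446984) was nearly level, at 6.07 with pregnenolone, 6.08 with artemisinin and 6.15 with DMSO. The gene irf8.L (446986) stood at 6.50 with pregnenolone, 6.34 with artemisinin and 7.23 with DMSO, which is 1.66-fold (-0.73) lower with pregnenolone and 1.85-fold (-0.89) lower with artemisinin. Without the DMSO array these 2 genes did not reach the threshold, with artemisinin minus pregnenolone at -0.39 for irf2.L and -0.16 for irf8.L.

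**Figure D2:**
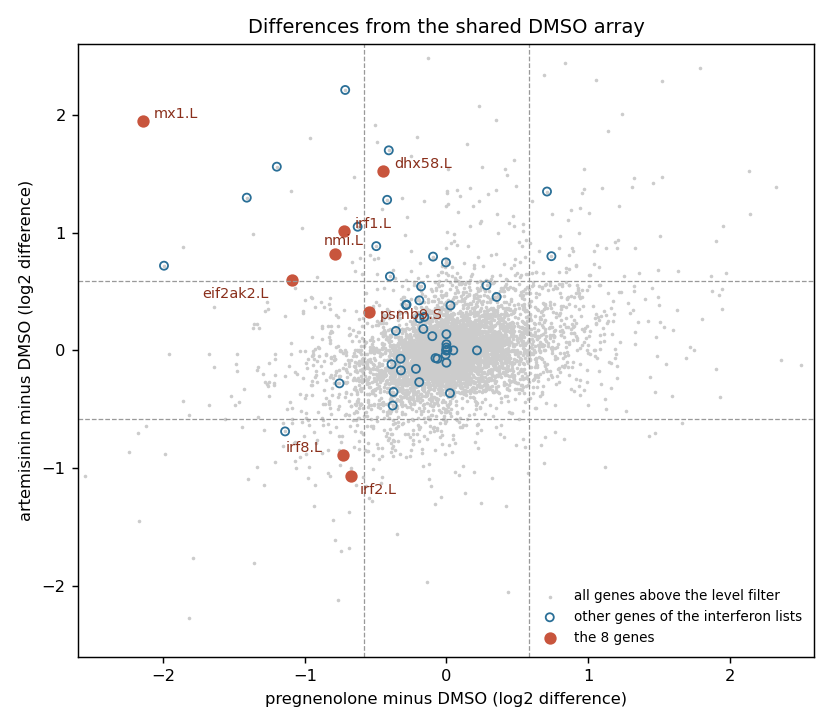
Log2 difference from DMSO with pregnenolone (horizontal axis) and artemisinin (vertical axis) for the genes above the level filter (grey), the 8 genes (filled, named) and the other genes of the interferon lists (open circles). Dashed lines mark 1.5-fold, both axes share the DMSO array, and 31 genes lie beyond the axes. The gene mx1.L lies farthest to the upper left at -2.14 (pregnenolone) and 1.94 (artemisinin), and irf2.L and irf8.L lie to the lower left.

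Opposite differences of at least 1.5-fold, lower with pregnenolone and higher with artemisinin, were found in 23 of 7478 genes (0.308%). They included mx1.L, irf1.L, eif2ak2.L and nmi.L. With no limit of size, 888 genes (11.9%) had pregnenolone below and artemisinin above DMSO, among them 6 of the 8 interferon response genes. Of the other genes on lists of interferon biology, 5 of 48 (10.4%) had opposite differences of at least 1.5-fold. These were gbp1, herc6.S, gbp7.S, parp12.L and tdrd7.L. Of them, gbp7.S passed the filter, which uses the mean of the 3 arrays, with the help of its high artemisinin value. Together with the 4 these 5 genes made up 9 of the 23 genes, while the 8 genes and the list genes were 0.749% of all genes. The 4 were selected on these same contrasts, so nothing is read from that count. The remaining 14 included the stress genes zfand2a.L and hspa1a.S, the thioredoxin gene txn.L, the transthyretin gene ttr.L, the lysozyme gene lyg2.S and the complement protease gene masp2.S.

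**Figure D3:**
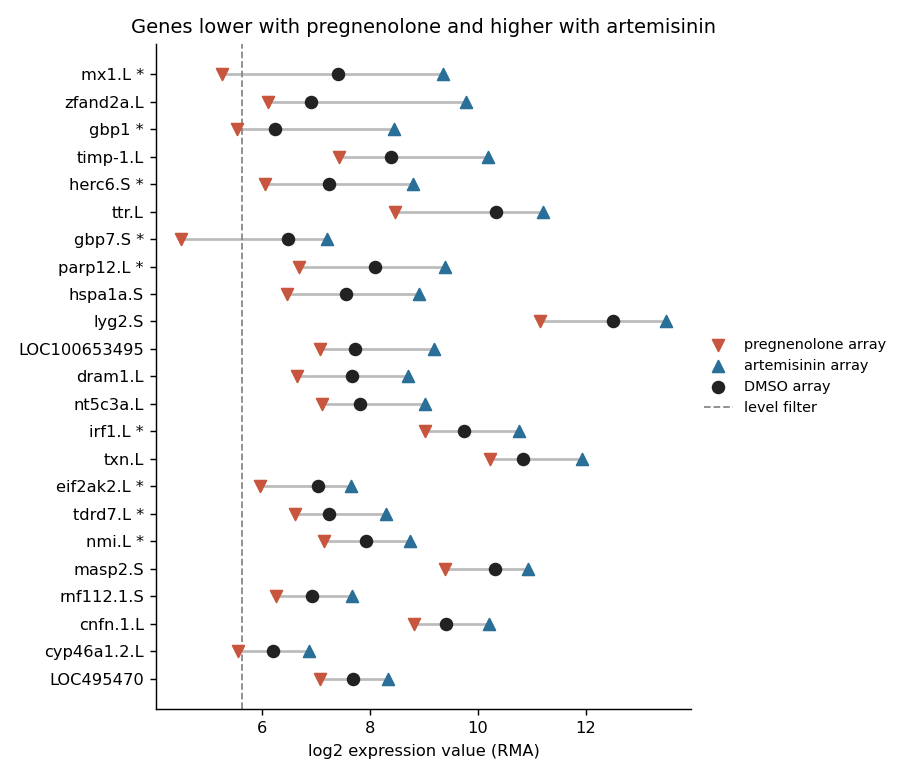
Log2 expression values of the 23 genes that were at least 1.5-fold lower with pregnenolone and at least 1.5-fold higher with artemisinin than with DMSO, ordered by the difference between the treated arrays; an asterisk marks the 8 genes and the genes of the interferon lists. The gene mx1.L is at the top with 5.26 (pregnenolone), 9.35 (artemisinin) and 7.40 (DMSO), and 9 of the 23 carry an asterisk. Of these 9, 4 belong to the 8 genes, which were selected on differences between these arrays.

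The wider pathway was described with 8 lists of 172 gene symbols, of which 59 had a probe set with that symbol. Interferons themselves, the receptor chains ifnar1, ifnar2, ifngr1 and ifngr2, the sensor ifih1 and the effectors rsad2 and isg15 were not analysed here. Without the 8 genes, 48 list genes passed the level filter. With pregnenolone 7 of the 48 (14.6%) lay at least 1.5-fold under DMSO and 2 (4.17%) over it, against 5.03% and 6.22% of all genes, and the median of the 48 was -0.17. With artemisinin 13 (27.1%) lay at least 1.5-fold over DMSO and 1 (2.08%) under it, against 3.0% and 2.98% of all genes, and the median was 0.15. With no level filter, over 64 list genes, the medians lay nearer 0, at -0.086 with pregnenolone and 0.036 with artemisinin. Between the treated arrays 16 (33.3%) were higher with artemisinin and 0 lower, against 4.97% and 6.53% of all genes. The lists were drawn up with results of these arrays known, and their genes can share regulators, so these shares describe these arrays.

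The list of interferon-induced genes held 15 further genes above the filter, among them herc3.L, herc4.L and herc4.S, whose induction by interferon was not checked. Of the 15, 6 lay at least 1.5-fold under DMSO and 1 over it with pregnenolone, against 5.03% and 6.22% of all genes. With artemisinin 9 were higher and 1 lower, against 3.0% and 2.98%. The guanylate-binding protein gene gbp1, of a family of GTPases that interferon induces, had levels of 5.52 with pregnenolone, 8.45 with artemisinin and 6.24 with DMSO. It differed by -0.72 with pregnenolone and 2.21 with artemisinin, and its pregnenolone value lay under the level filter. Of 2 dimmer probe sets of gbp1, both with means below the filter, 1 that is marked for cross-hybridisation differed by -0.24 with pregnenolone and 2.47 with artemisinin, and the other, at 0 and 0.11 on the same comparisons, did not separate the arrays. A related gene, gbp7.S, stood at 4.49, 7.20 and 6.48 on the pregnenolone, artemisinin and DMSO arrays, and was low with pregnenolone (-2.00). That pregnenolone value lay well under the level filter, so the size of this difference can depend on the background correction, as for mx1.L. The high artemisinin value helped gbp7.S pass the filter. The ubiquitin ligase gene herc6.S had levels of 6.04 with pregnenolone, 8.80 with artemisinin and 7.24 with DMSO, differing by -1.20 with pregnenolone and 1.56 with artemisinin. The gene parp12.L, for an ADP-ribosyltransferase, had levels of 6.68 with pregnenolone, 9.38 with artemisinin and 8.09 with DMSO, differing by -1.41 with pregnenolone and 1.30 with artemisinin. These 4 genes shared with mx1.L the order pregnenolone, DMSO, artemisinin from low to high. The granule protein gene tdrd7.L differed by -0.63 with pregnenolone and 1.05 with artemisinin. The RNA editing gene adar.S (0.80), herc4.L (0.75) and the membrane protein gene ifitm3.L (0.63) were past the threshold with artemisinin, at -0.09, 0.00 and -0.40 with pregnenolone. Not all members of this list had that order. The gene parp9.L was higher with both compounds (0.74 with pregnenolone and 0.80 with artemisinin), and ido1.L, for an enzyme of tryptophan breakdown, was lower with both (-1.14 with pregnenolone and -0.69 with artemisinin).

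The gene ifit1b.L, of the family of interferon-induced proteins with tetratricopeptide repeats, was looked up after the lists had been matched, since its symbol was on none of them. Its probe sets disagreed. The brightest had levels of 7.06 with pregnenolone, 7.33 with artemisinin and 7.14 with DMSO, and hardly separated the arrays. Another above the filter had levels of 4.64 with pregnenolone, 6.68 with artemisinin and 5.90 with DMSO, which is -1.26 with pregnenolone and 0.78 with artemisinin. That probe set is marked for cross-hybridisation, its pregnenolone value lay under the filter, and its high artemisinin value helped its mean pass. Another probe set, not so marked but with a mean below the filter, had the same order, at -1.38 with pregnenolone and 1.18 with artemisinin. The remaining 2, with means well below the filter, differed by 0.27 and 0.13 with pregnenolone and by 0.14 and 0.12 with artemisinin.

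The lists of sensors and signalling genes were short, so nothing is read from their counts past 1.5-fold. Of 6 sensor and adaptor genes other than dhx58.L, 0 reached it in either comparison. Of 5 JAK-STAT genes, at their brightest probe sets, 1 was lower and 0 higher with pregnenolone, and 0 reached it with artemisinin. Of all genes 5.03% were lower and 6.22% higher with pregnenolone, and 2.98% lower and 3.0% higher with artemisinin. The largest differences among the 6 were those of traf6.L (0.35 with pregnenolone and 0.45 with artemisinin), a ubiquitin ligase of the toll-like receptor route, the adaptor gene myd88.L (0.03 with pregnenolone and 0.38 with artemisinin), its copy myd88.S (0.22 with pregnenolone and 0.00 with artemisinin) and ikbke.L (0.00 with pregnenolone and 0.14 with artemisinin), a kinase that acts on IRFs. The tyrosine kinase gene jak2.L was lower with pregnenolone (-0.76), less so at its other probe set above the filter (-0.31), and differed by -0.28 with artemisinin. The kinase genes jak1.S (-0.36 with pregnenolone and 0.17 with artemisinin, at its brightest probe set) and tyk2.L (-0.32 with pregnenolone and -0.17 with artemisinin) stayed within 1.5-fold. A dimmer jak1.S probe set above the filter was past the threshold with artemisinin (0.62) and at -0.08 with pregnenolone. Yet another above the filter was at 0.08 with artemisinin and -0.12 with pregnenolone. The one receptor gene above the filter, il10rb.S, which encodes a chain of the type III interferon receptor, was at 0.28 with pregnenolone and 0.55 with artemisinin. The other IRF genes above the filter, irf3.L (-0.16 with pregnenolone and 0.28 with artemisinin) and irf5.L (-0.10 with pregnenolone and 0.12 with artemisinin), lay within 1.5-fold.

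Among 10 inhibitors other than irf2.L, 3 lay at least 1.5-fold over DMSO and 0 under it with artemisinin, against 3.0% and 2.98% of all genes. With pregnenolone 1 was higher and 0 lower, against 6.22% and 5.03% of all genes. The signalling inhibitor socs1.S had levels of 5.63 with pregnenolone, 7.33 with artemisinin and 6.05 with DMSO. It was 1.28 above DMSO with artemisinin and -0.42 with pregnenolone, and a dimmer probe set below the filter did not separate the arrays (-0.19 with pregnenolone and -0.12 with artemisinin). The ubiquitin-editing gene tnfaip3.S, an inhibitor of NF-kB signalling, stood at 6.25 with pregnenolone, 8.35 with artemisinin and 6.65 with DMSO, which is -0.41 with pregnenolone and 1.70 with artemisinin. The gene socs3.S was higher with both compounds (0.71 with pregnenolone and 1.35 with artemisinin). The phosphatase genes ptpn2.L (-0.19 with pregnenolone and 0.42 with artemisinin) and ptpn2.S (-0.39 with pregnenolone and -0.12 with artemisinin) stayed within the threshold.

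**Figure D4:**
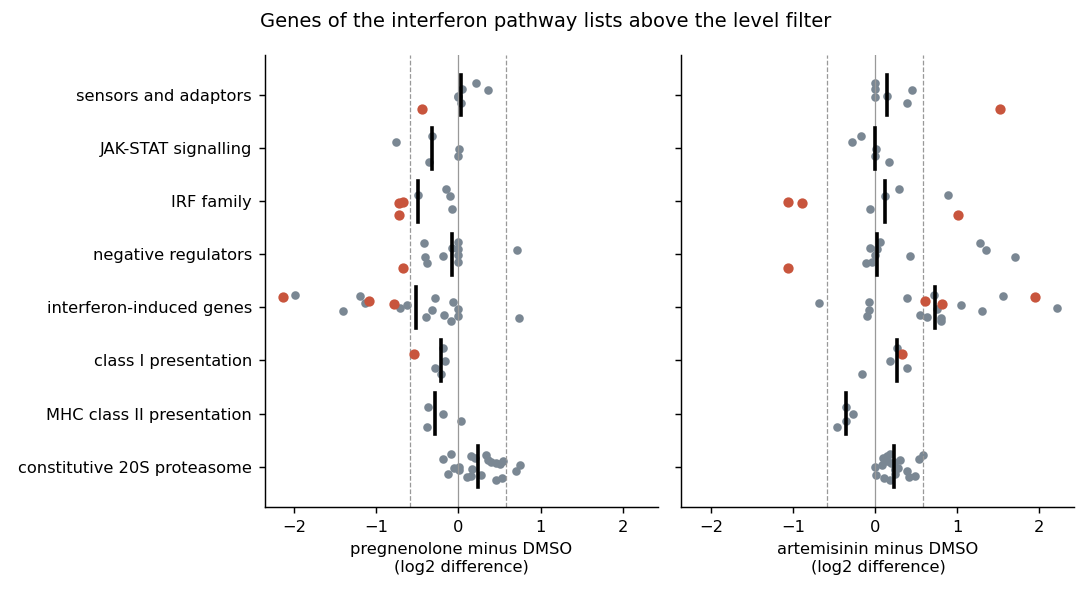
Log2 differences from DMSO with pregnenolone (left) and artemisinin (right) of the genes above the level filter on 7 of the interferon lists and the constitutive 20S proteasome list, with 1 point per gene; the 8 interferon response genes are in red, black bars are list medians with those genes included, and dashed lines mark 1.5-fold. The list of interferon-induced genes has medians of -0.51 with pregnenolone and 0.73 with artemisinin, while the constitutive 20S proteasome has 0.24 and 0.23.

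The proteasome genes allowed psmb9.S to be set beside its standard counterparts. The gene psmb6, whose product takes the place of PSMB9 in the standard core, had differences of 0.70 with pregnenolone and 0.39 with artemisinin for psmb6.L and of 0.52 and 0.10, in the same order, for psmb6.S. The gene psmb5.L, for another catalytic subunit, was at 0.50 with pregnenolone and 0.23 with artemisinin. Thus psmb9.S lay below DMSO with pregnenolone (-0.55) while these lay above it. Of 22 constitutive 20S subunit genes, 18 lay above DMSO with pregnenolone and 4 below it. The share of all genes on either side is not given here, so nothing is read from these counts. The 4 below DMSO, among them psmb7.2.L (-0.19 with pregnenolone and 0.53 with artemisinin), had the same order of the arrays as psmb9.S. Of the 22, 2 were at least 1.5-fold higher with pregnenolone, psmb6.L and psmb7.S (0.76), against 6.22% of all genes. With artemisinin 0 were, against 3.0%. The list medians were 0.24 with pregnenolone and 0.23 with artemisinin. Class I presentation genes other than psmb9.S, at their brightest probe sets, also stayed within 1.5-fold of DMSO. The proteasome activator genes psme1.L (-0.16 with pregnenolone and 0.18 with artemisinin), psme1.S (-0.28 with pregnenolone and 0.39 with artemisinin) and psme2.L (-0.19 with pregnenolone and 0.27 with artemisinin) had the same order of the arrays as psmb9.S, and b2m.S, the light chain of class I molecules, was below DMSO with both (-0.22 with pregnenolone and -0.16 with artemisinin). The other probe set of b2m.S differed more, by -0.76 with pregnenolone, which is past 1.5-fold, and by -0.55 with artemisinin. The probe sets of psmb8.L, tap1.L and tap2.L lay under the level filter. The class II genes cd74.L (-0.38 with pregnenolone and -0.47 with artemisinin), cd74.S (-0.37 with pregnenolone and -0.35 with artemisinin), ctss.L (-0.19 with pregnenolone and -0.27 with artemisinin) and ctss.S (0.03 with pregnenolone and -0.36 with artemisinin) were within 1.5-fold.

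Profiles were compared by the Euclidean distance between log2 levels over the 3 arrays after each gene's mean was subtracted. Nearest to mx1.L, the gene with the widest range among the 8, were herc6.S (distance 0.97), parp12.L (0.98), zfand2a.L (0.98), ttr.L (1.01) and timp-1.L (1.03), the last for an inhibitor of matrix proteases. Nearest to the median profile of the 8 genes were masp2.S (0.07), nmi.L (0.08), eif2ak2.L (0.16), rnf112.1.S (0.16) and ing5.S (0.16). With 3 arrays a short distance says only that the values lay close.

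Markers of other liver cells are given because irf8.L and several of the genes above are also made by leukocytes. Of 20 leukocyte genes above the filter, 1 lay at least 1.5-fold under DMSO with pregnenolone and 0 over it, against 5.03% and 6.22% of all genes. At any size 17 of the 20 were below DMSO and 1 above it, and their median was -0.30. With artemisinin 2 lay at least 1.5-fold under DMSO and 0 over it, against 2.98% and 3.0% of all genes. At any size 9 were below DMSO and 10 above it, and the median was 0.01, against an all-gene median of 0 in both comparisons. The share of all genes on either side of DMSO is not given here. Between the treated arrays 1 of the 20 was at least 1.5-fold higher with artemisinin and 0 lower, against 4.97% and 6.53% of all genes. Their median there was 0.26. The summed linear level of the 20 genes was 8980 with pregnenolone, 9836 with artemisinin and 11331 with DMSO. Such a sum gives most weight to the brightest genes, among them c1qb.L at 10.60 with pregnenolone, 10.25 with artemisinin and 11.02 with DMSO. The gene past the threshold with pregnenolone was lcp1.S (-0.59), and those with artemisinin were the complement genes c1qb.L (-0.76) and c1qc.L (-0.60), made by macrophages. The probe set of the pan-leukocyte gene ptprc.L (CD45) had levels of 3.33 with pregnenolone, 3.55 with artemisinin and 3.55 with DMSO, all far under the filter. Other pan-leukocyte genes were well above it, and 8 of the 12 measured passed. Among them rac2.L stood at 8.94 with pregnenolone, 9.27 with artemisinin and 9.52 with DMSO. The ptprc.L value therefore does not speak for the list. The median of the biliary and stellate list was -0.70 with pregnenolone and -0.78 with artemisinin, but its genes were not alike. The stellate genes acta2.L (-1.82 with pregnenolone and -2.27 with artemisinin) and tagln.L (-1.36 and -1.80, in the same order) were lower with both. Of the bile duct genes, epcam.S, krt7.L, krt19.L and sox9.L stayed within 1.5-fold in both comparisons. The copy sox9.S was lower with both (-1.40 with pregnenolone and -1.09 with artemisinin), and krt19.S reached 1.5-fold with pregnenolone only (-0.78). In each comparison 7 of 12 genes of the list were at least 1.5-fold lower and 0 higher. Of all genes 5.03% were lower and 6.22% higher with pregnenolone, and 2.98% lower and 3.0% higher with artemisinin. The summed level of this list was 3417 with pregnenolone, 3668 with artemisinin and 5651 with DMSO. Its median for artemisinin minus pregnenolone was -0.03. The erythrocyte list was lower with artemisinin, with 6 of 11 genes at least 1.5-fold lower, against 2.98% of all genes. With pregnenolone 2 of the 11 were at least 1.5-fold lower and 0 higher, against 5.03% and 6.22% of all genes. The erythrocyte median was -0.65 with artemisinin, 0.05 with pregnenolone and -0.75 for artemisinin minus pregnenolone. Its summed level was 48336 with pregnenolone, 42592 with artemisinin and 45964 with DMSO. The brightest genes of the list, hbg1.L and hba1.S, were nearly level with artemisinin (-0.03 and -0.05). The part of these cell types in the values of irf2.L, irf8.L and the other interferon response genes was not tested.

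**Figure D5:**
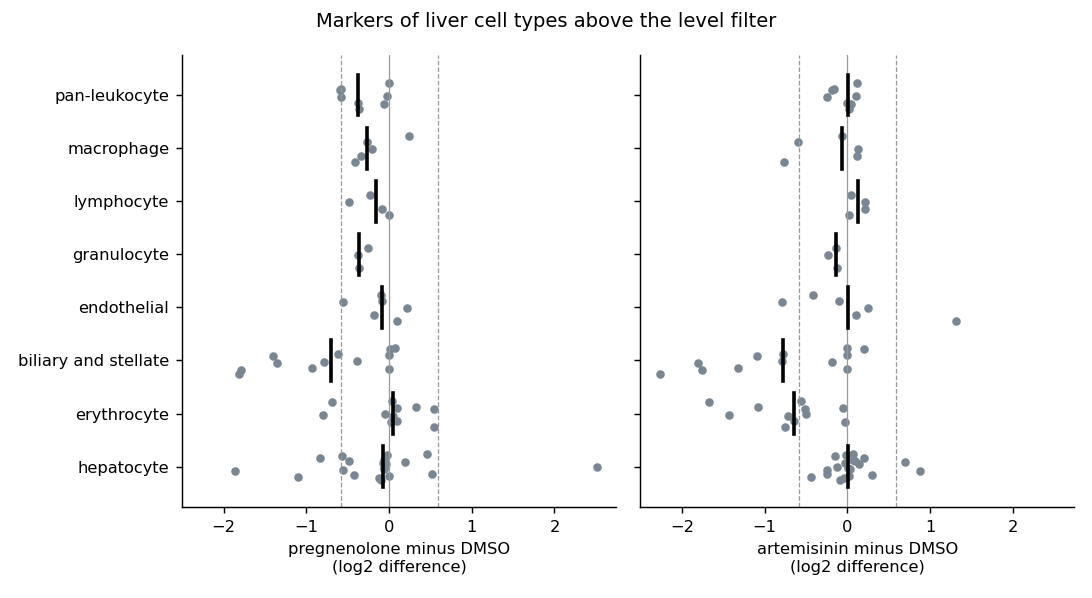
Log2 differences from DMSO with pregnenolone (left) and artemisinin (right) of marker genes above the level filter, with 1 point per gene, a black bar at each list median and dashed lines at 1.5-fold. The pan-leukocyte median is -0.37 with pregnenolone and 0.01 with artemisinin. The biliary and stellate median is -0.70 with pregnenolone and -0.78 with artemisinin.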

How the data were processed

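The values that the authors deposited are on a log2 scale and were made by RMA (robust multiarray averaging), per the submitters' processing notes, which give no version. That the logarithm has base 2 follows from how RMA is defined and from the range of the values. RMA makes the distributions of arrays alike, which removes differences in the total amount of message. The values were used as deposited. Equal values to within 1e-04 on the pregnenolone and DMSO arrays were found for 13.3% of genes above the filter, and on the artemisinin and DMSO arrays for 14.5%, so small differences may be set to 0. Of 32635 probe sets, 96 were controls and were left out. The platform annotation named 1 gene for 15495 probe sets, more than 1 for 279 and no gene for 16765, and 2 symbols were updated through the Entrez identifier.

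With 1 array per group no test was possible, and differences of log2 values were taken. Alternatives were a 2-fold threshold, no level filter, a filter at the 75th percentile, median centring and removal of a loess trend. Others left out probe sets with names ending in _s_at, _x_at or _a_at, or took the mean of a gene's probe sets. Those endings cover more than the marks for cross-hybridisation. The steps were run in Python 3.11.15 with pandas 2.3.3 and statsmodels 0.14.6 and were tested on simulated data. For arrays the number of arrays limits the precision.

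The genes and lists were chosen with earlier results of these data known. Genes were named by this rule: the 8 genes, their other copies, per list, up to 4 genes that differed most from DMSO with either compound and those past 1.5-fold with both, psmb5 and psmb6, and the 5 nearest profiles to mx1.L and to the median profile. Others were named after their values were seen. A promoter motif search had been planned and was not run, because no sequences were used here.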

Additional observations from a re-analysis of the deposited data

How the results depend on the processing

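No paired analysis was possible because each group was 1 array, and no replicate could be left out. At a 2-fold threshold, 2 of the 8 genes were lower and 0 higher with pregnenolone, while 3 were higher and 1 lower with artemisinin. Between the treated arrays 5 of the 8 were higher with artemisinin and 0 lower. At 2-fold, 104 of all 7478 genes were lower and 139 higher with pregnenolone, and 95 were higher and 53 lower with artemisinin. Between the treated arrays 140 of all genes were higher and 119 lower with artemisinin. Of the 48 other interferon genes, 4 were then lower and 0 higher with pregnenolone, and 7 higher and 0 lower with artemisinin. With the level filter at the 75th percentile, which tests fewer genes, only mx1.L, irf1.L, nmi.L and psmb9.S were left of the 8 genes. Of these 4, 3 were lower and 0 higher with pregnenolone, and 3 higher and 0 lower with artemisinin, irf2.L and irf8.L being no longer counted. All genes then gave 257 lower and 326 higher with pregnenolone and 141 higher and 134 lower with artemisinin. The other interferon genes gave 4 lower and 1 higher with pregnenolone and 8 higher and 0 lower with artemisinin. The totals above that filter are not given here, so no share is read from these counts. With no level filter the median of the other interferon genes was -0.086 with pregnenolone and 0.036 with artemisinin, and no count moved by over 1.5 times. Without probe sets ending in _s_at, _x_at or _a_at, irf1.L rests on its other probe set, and its artemisinin difference was -0.0664. The median of the 8 genes was then 0.46 for artemisinin minus DMSO and 1.24 for artemisinin minus pregnenolone. With the mean of a gene's probe sets the last was also 1.24, and irf1.L was at -0.40 with pregnenolone and 0.47 with artemisinin. Of 132 recomputed differences of the 8 genes, 5 others moved by at least the SD between probe sets, and all of these were of irf1.L. Median centring and removal of a loess trend changed no count by over 1.5 times and no sign of a called gene. The 8 genes' differences rest on 1 pool per group, and values near the level filter can depend on the background correction.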
